A study of Mus musculus with 9 samples.

Results

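Iron, zinc and metallothionein transcripts were followed in microglia sorted from the mouse brain 1 day after an astrocyte lesion. The 10 genes were chosen by symbol, with earlier results of these libraries known: the iron importer gene Tfrc, the metal transporter genes Slc11a1 and Slc39a14, the ferritin genes Fth1 and Ftl1, the iron exporter gene Slc40a1, the heme oxygenase gene Hmox1, the metallothionein genes Mt1 and Mt2 and the zinc exporter gene Slc30a1. Of 23238 gene symbols in the count tables these were 10, and all 10 were among the 12292 genes that passed the filter on low counts. Slc39a14 and Mt1 were selected on their rise in these data, so their levels and folds are a description and carry no test, while the other 8 were tested.

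All mice were wild-type C57BL/6N females, 12 weeks old. The Normal group was untreated. The NMO group, a model of neuromyelitis optica, had NMO-IgG (patient antibody against the astrocyte water channel aquaporin-4) and human complement injected into one striatum. The NMO+CL group had the same injection and, 6 h before it, intraperitoneal clodronate liposomes, which deplete blood monocytes. CD45+CD11b+P2ry12+ cells were sorted at day 1, and each of the 3 libraries of a group was made from a pool of 3 mice. No control antibody, sham injection or empty liposome library was analysed here, so antibody, complement and injection cannot be told apart, nor can clodronate and its carrier.

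Cells take up transferrin-bound iron through the transferrin receptor (Tfrc), store it in ferritin shells built of heavy and light chains (Fth1, Ftl1) and release it through ferroportin (Slc40a1). When iron is scarce, iron regulatory proteins bind hairpins in these transcripts, the iron-responsive elements, which blocks translation where the hairpin precedes the coding part and stabilises the transcript where it follows it. Zinc enters the cytosol through SLC39 transporters, leaves it through SLC30 transporters and is buffered by metallothioneins, and Slc39a14 also carries iron that is not bound to transferrin.

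The hairpins are shown as a description of the iron genes. Those genes are known to carry them, as said above. Finding them here was therefore settled when iron genes were chosen and gives no independent support. GENCODE M21 transcripts (GRCm38) were searched on the transcript strand for a C, 5 bases, the loop CAGTGN and 5 bases that pair with the first 5, with G-T pairs allowed. Of the 10 genes, 4 held a match outside the coding part: Fth1, Ftl1 and Slc40a1 each 1 before it, and Tfrc 4 after it. Among 21901 protein-coding genes, these included, 0.142% had a match before the coding part and 0.589% after it. The 1 gene with 4 or more after it was Tfrc itself. These shares took a match in any transcript of a gene, while the 10 genes were searched in 1 transcript each. A match describes letters and is not evidence of binding. Capitals mark the loop in each sequence, written 5′ to 3′ on the transcript strand.
Fth1, chr19:9982732-9982760, plus strand: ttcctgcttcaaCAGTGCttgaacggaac
Ftl1, chr7:45459779-45459807, minus strand: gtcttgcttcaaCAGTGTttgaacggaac
Slc40a1, chr1:45925465-45925493, minus strand: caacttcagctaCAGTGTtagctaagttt
Tfrc element 1, chr16:32631219-32631247, plus strand: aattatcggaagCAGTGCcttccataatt
Tfrc element 2, chr16:32631598-32631626, plus strand: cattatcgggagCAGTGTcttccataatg
Tfrc element 3, chr16:32631663-32631691, plus strand: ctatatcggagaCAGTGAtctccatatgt
Tfrc element 4, chr16:32631710-32631738, plus strand: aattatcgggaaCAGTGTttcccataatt

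Libraries held 5788234 to 7837219 counts. Summed microglia markers (10 of 10 with counts in every library) lay at 34170 to 38815 CPM (counts scaled for library size) in Normal, 29414 to 34234 in NMO and 19906 to 27559 in NMO+CL, where NMO+CL replicate 3 was highest. Among them P2ry12, the gene of the gate, lay at 2055 to 2665, 1558 to 1756 and 266 to 449 CPM. Border macrophage markers (7 genes) summed to 160 to 309 CPM in Normal, to 187, 8.62 and 166 in NMO and to 218, 275 and 410 in NMO+CL. Most of each sum was Cbr2 except in NMO replicate 2, where Cbr2 was at 0, and Mrc1 lay between 7.85 and 20.4 CPM. Erythroid transcripts were also lowest in NMO replicate 2 (12.2 CPM, against 391 to 981 in the other 8 libraries). Neutrophil markers ranged from 40.6 to 501 CPM in Normal, 96.7 to 360 in NMO and 270 to 1277 in NMO+CL. Monocyte markers ranged from 23.03 to 83.9 CPM. Astrocyte and oligodendrocyte markers summed to 197 to 221 CPM in Normal, 105 to 137 in NMO and 85.5 to 127 in NMO+CL. Most of each sum was Slc1a3 (142.1 to 202.9, 89.5 to 122.5 and 66.83 to 122.5 CPM in the same order). Aqp4 did not fall with it, at 1.346 to 11.14, 4.643 to 15.92 and 4.484 to 9.882 CPM. Lymphocyte markers summed to at most 7.17 CPM and endothelial markers to 37.5 to 82.1 CPM. Of the microglia markers 1, 4 and 7 were lower at an adjusted p under 0.05 in NMO against Normal, NMO+CL against NMO and NMO+CL against Normal, and of the 6 tested astrocyte and oligodendrocyte markers 2 were lower in the last. The part of these cells in the levels below was not tested. In a bulk library, fewer cells of a type and less RNA per cell cannot be told apart.

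Tfrc and Slc40a1, the uptake and export genes, moved in opposite directions in NMO+CL against Normal. CPM below are scaled by trimmed mean of M-values (TMM), and a gene was called when edgeR's quasi-likelihood test gave a Benjamini-Hochberg adjusted p under 0.05 over all genes tested. Tfrc (chromosome 16, 32608920 to 32632794) had 8.29, 11.6 and 8.41 CPM in the Normal libraries, 52.9, 56.5 and 67.6 in NMO and 58.4, 53.8 and 37.0 in NMO+CL. Every injected library was above every Normal library, and the NMO and NMO+CL libraries overlapped. Tfrc rose 6.24-fold in NMO over Normal (log2 fold change 2.64, SE 0.31, adjusted p = 3.79e-04) and 5.26-fold in NMO+CL over Normal (2.39, SE 0.31, adjusted p = 9.98e-05). Between NMO+CL and NMO the difference was -0.25 (SE 0.28, adjusted p = 0.810). Both calls held under all 16 alternatives tried.

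Slc40a1 (chromosome 1, 45908068 to 45926523), the only known cellular iron exporter, had 152, 129 and 137 CPM in Normal, 67.5, 71.8 and 82.9 in NMO and 29.3, 23.8 and 45.6 in NMO+CL. The groups formed 3 steps that did not overlap. Relative to Normal it fell in NMO+CL by 2.08 on the log2 scale (SE 0.26, adjusted p = 7.17e-05), 4.24-fold, under all 16 alternatives. Relative to NMO it fell in NMO+CL by 1.17 (SE 0.25, adjusted p = 0.0249), and this call was lost without NMO replicate 1 (adjusted p = 0.0640), NMO replicate 3 (0.0682), NMO+CL replicate 1 (0.0569) or NMO+CL replicate 2 (0.142). NMO against Normal gave -0.91 (SE 0.25, adjusted p = 0.128), which did not pass.

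**Figure D1:**
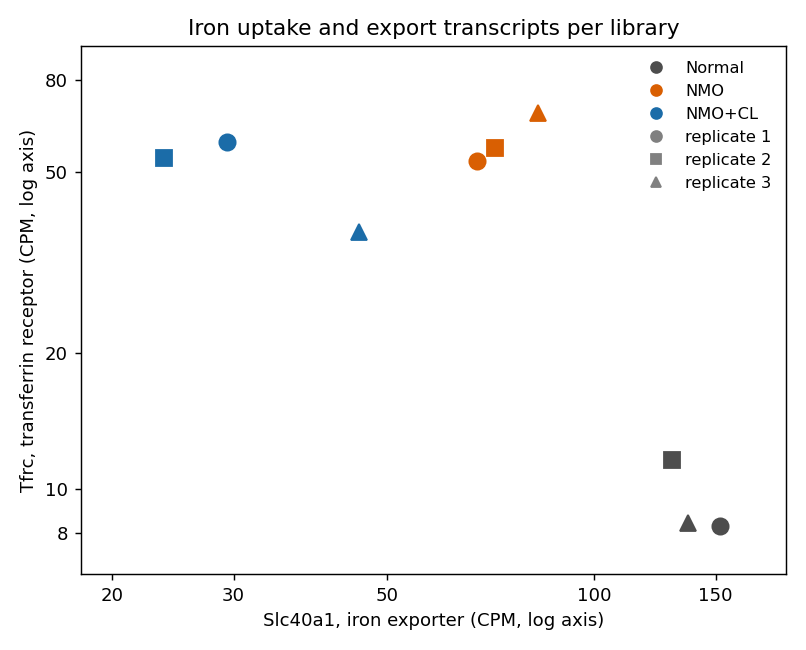
Tfrc against Slc40a1 in TMM-scaled CPM, both on log axes, with 1 point for each of the 9 libraries (colour for group, shape for replicate). The 3 Normal libraries sit at low Tfrc and high Slc40a1, the 3 NMO libraries at high Tfrc and intermediate Slc40a1, and the 3 NMO+CL libraries at high Tfrc and the lowest Slc40a1, with NMO+CL replicate 3 nearest to NMO.

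The ratio of Tfrc to Slc40a1 counts within a library, which needs no scaling between libraries, put the 2 genes on one axis. It was 0.0544, 0.0895 and 0.0614 in the Normal libraries, 0.784, 0.787 and 0.815 in NMO and 1.99, 2.26 and 0.811 in NMO+CL. NMO+CL replicate 3 thus fell inside the narrow NMO range, and the other NMO+CL libraries lay above it. The ratio shows unequal change of the pair and not a difference of level between genes.

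Slc11a1 (chromosome 1, 74375195 to 74386062) encodes a transporter that moves divalent metals out of phagosomes and is carried by C57BL/6 strains as a non-functional allele. It had 111, 123 and 160 CPM in Normal, 124, 147 and 88.5 in NMO and 147, 146 and 84.9 in NMO+CL, and all 3 groups overlapped. Its log2 differences were -0.13 (SE 0.25, adjusted p = 0.957) in NMO relative to Normal, 0.07 (SE 0.25, adjusted p = 0.962) in NMO+CL relative to NMO, and -0.06 (SE 0.25, adjusted p = 0.939) in NMO+CL relative to Normal. The last 300 bases of its transcripts match 7 other genes at 90% identity or more over 75 bases or more, and reads with several alignments were counted, so its level is uncertain.

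Slc39a14 (chromosome 14, 70303469 to 70351425), which imports zinc, manganese and iron, was among the 2 genes picked for a rise. It had 4.14, 6.02 and 1.51 CPM in Normal, 39.4, 41.1 and 26.7 in NMO and 59.5, 37.3 and 35.7 in NMO+CL. Normal replicate 3 was lowest, on 9 counts, and the injected libraries had 167 to 408 counts and no overlap with Normal. The fold was 9.09 in NMO over Normal (log2 3.18, SE 0.45) and 11.2 in NMO+CL over Normal (log2 3.49, SE 0.45), and without Normal replicate 3 these log2 values were 2.79 and 3.11. NMO+CL and NMO overlapped, with a log2 difference of 0.31 (SE 0.39) that shrank to 0.03 without NMO+CL replicate 1. Over the 9 libraries the log2 CPM of Slc39a14 and Tfrc had a Pearson r of 0.946, a description of points that share the 3 group levels.

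**Figure D2:**
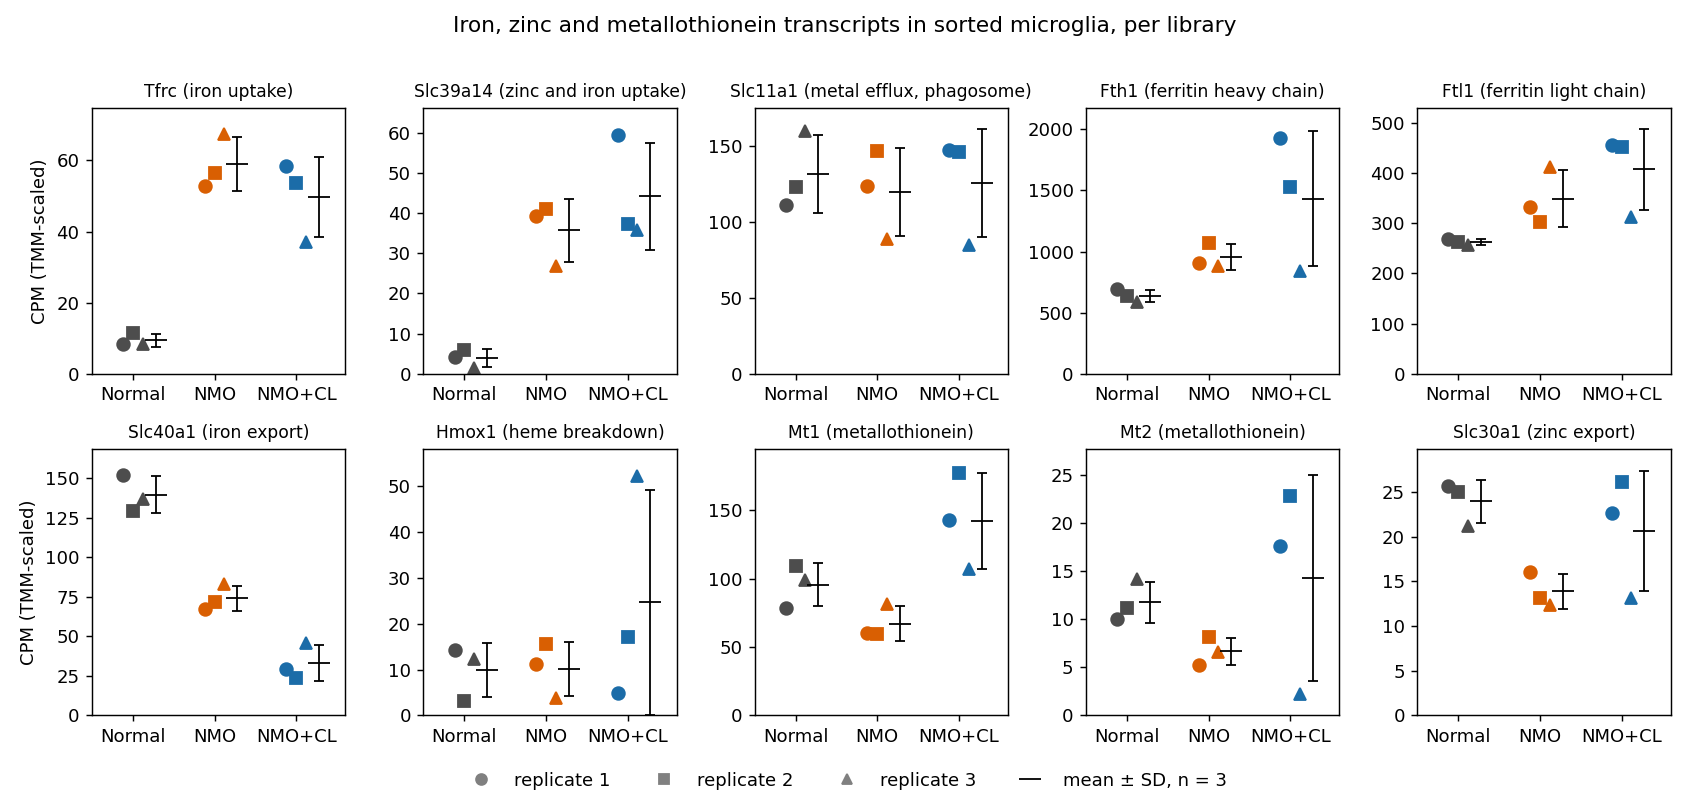
TMM-scaled CPM of the 10 genes, 1 panel per gene with its own axis from 0, with 1 point per library (shape for replicate) and the mean ± SD of 3 libraries beside each group. Tfrc and Slc39a14 separate Normal from both injected groups, Slc40a1 steps down over the 3 groups, and NMO+CL replicate 3 (triangle) lies apart from its group for Fth1, Mt2 and Hmox1.

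Both ferritin genes rose in NMO+CL over Normal, and neither passed in the other comparisons. Fth1 (chromosome 19, 9980598 to 9985098), the chain with ferroxidase activity, had 691, 634 and 591 CPM in Normal, 910, 1073 and 883 in NMO and 1930, 1527 and 841 in NMO+CL. Both injected groups lay above Normal in every library, and NMO+CL replicate 3 lay below all NMO libraries. Fth1 rose 2.24-fold in NMO+CL over Normal (log2 1.17, SE 0.23, adjusted p = 0.00338) under all 16 alternatives. The differences for NMO against Normal (0.58, SE 0.23, adjusted p = 0.409) and NMO+CL against NMO (0.58, SE 0.23, adjusted p = 0.267) did not pass, but the second passed without NMO+CL replicate 3 (0.85, adjusted p = 0.0193).

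Ftl1 (chromosome 7, 45457944 to 45459884), the chain that aids mineral formation, had 269, 262 and 257 CPM in Normal, 333, 302 and 413 in NMO and 456, 452 and 313 in NMO+CL. Again every injected library exceeded every Normal library. Ftl1 rose 1.55-fold in NMO+CL over Normal (log2 0.63, SE 0.19, adjusted p = 0.0497), just inside the threshold. That call was lost without any 1 of the 3 Normal libraries (adjusted p 0.114 for replicate 1, 0.143 for replicate 2 and 0.153 for replicate 3), without NMO replicate 1 (0.0747), NMO+CL replicate 1 (0.143) or NMO+CL replicate 2 (0.191), and with DESeq2 size factors (0.0508). The log2 difference was 0.41 (SE 0.19, adjusted p = 0.520) for NMO against Normal and 0.22 (SE 0.19, adjusted p = 0.717) for NMO+CL against NMO. Transcript ends of Fth1 match those of 3 pseudogenes and those of Ftl1 match 21 other genes, 7 of them pseudogenes, so both levels could include reads of their copies.

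The summed ferritin counts made up 0.0854% to 0.0870% of a Normal library and 0.126% to 0.148% of an NMO library. In NMO+CL they were 0.233%, 0.204% and 0.116%. Within a library the ratio of Fth1 to Ftl1 counts was 2.30 to 2.56 in Normal, 2.14 to 3.55 in NMO and 2.68 to 4.23 in NMO+CL, so NMO spanned the whole Normal range. Across the 9 libraries Fth1 followed Ftl1 (r = 0.874) and ran against Slc40a1 (r = -0.900), given as a description over the same 3 groups.

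Hmox1 (chromosome 8, 75093621 to 75100589), the inducible enzyme that frees iron from heme, varied more within groups than between them. It had 14.2, 3.16 and 12.3 CPM in Normal, 11.2, 15.6 and 3.84 in NMO and 4.96, 17.01 and 52.2 in NMO+CL. NMO+CL replicate 3, with 326 counts, was far above the other 8 libraries, which had 21 to 130. No comparison passed, with log2 0.05 (SE 0.72, adjusted p = 0.994) in NMO relative to Normal, 1.27 (SE 0.72, adjusted p = 0.509) in NMO+CL relative to NMO, and 1.32 (SE 0.73, adjusted p = 0.315) in NMO+CL relative to Normal. Without that library the last 2 values were 0.10 and 0.15. The 7 border macrophage markers differed among themselves in that library: Cbr2 was highest of the 9 libraries (395 CPM) and Siglec1 second highest (1.76), Lyve1 was at 4.96, Mrc1 was lowest (7.85), and Cd163, Pf4 and Ms4a7 were at 0, as they also were in NMO replicates 2 and 3. Their part in the Hmox1 level was not tested.

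Mt1 (chromosome 8, 94179082 to 94180327), which encodes a small cysteine-rich protein that binds zinc and copper, was picked for a rise that these libraries show in NMO+CL and not in NMO. It had 78.6, 109 and 99.1 CPM in Normal, 60.1, 59.7 and 81.7 in NMO and 143, 177 and 107 in NMO+CL. Every NMO+CL library was above every NMO library, while NMO and NMO+CL each overlapped Normal. The fold was 2.12 in NMO+CL over NMO (log2 1.09, SE 0.24) and 1.49 in NMO+CL over Normal (log2 0.58, SE 0.24), and the NMO level was lower than Normal (log2 -0.51, SE 0.24).

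Mt2 (chromosome 8, 94172664 to 94173568) ends 5514 bases before Mt1 starts, on the same strand. It had 10.04, 11.1 and 14.1 CPM in Normal, 5.28, 8.14 and 6.56 in NMO and 17.7, 22.8 and 2.24 in NMO+CL. All NMO libraries were below all Normal libraries, and NMO+CL replicate 3 was the lowest of the 9 with 14 counts. Its differences were -0.82 (SE 0.65, adjusted p = 0.799) in NMO relative to Normal, 1.09 (SE 0.65, adjusted p = 0.533) in NMO+CL relative to NMO, and 0.28 (SE 0.64, adjusted p = 0.885) in NMO+CL relative to Normal, where limma-voom gave -0.23. The last 2 were 1.60 and 0.78 without NMO+CL replicate 3 but 0.58 and -0.24 without NMO+CL replicate 2, and limma-voom gave 0.58 for NMO+CL over NMO. The ratio of Mt1 to Mt2 counts was 7.01 to 12.4 in 8 libraries and 47.9 in NMO+CL replicate 3, so the pair parted in that library alone. Over the 9 libraries their r was 0.518.

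Slc30a1 (chromosome 1, 191906767 to 191913247), the zinc exporter of the plasma membrane and, like the metallothioneins, a target of the zinc sensor MTF1, had 25.7, 25.0 and 21.2 CPM in Normal, 16.1, 13.2 and 12.3 in NMO and 22.6, 26.1 and 13.1 in NMO+CL. All NMO libraries were below all Normal libraries, and NMO+CL replicate 3 again sat with NMO. No comparison passed: -0.79 (SE 0.38, adjusted p = 0.550), 0.57 (SE 0.38, adjusted p = 0.594) and -0.22 (SE 0.38, adjusted p = 0.836) in the order NMO over Normal, NMO+CL over NMO, NMO+CL over Normal. The exons overlap 1700034H15Rik on the opposite strand by 468 bases, and no source used here says that strand was counted. Slc30a1 and Mt2 had an r of 0.757 over the 9 libraries.

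**Figure D3:**
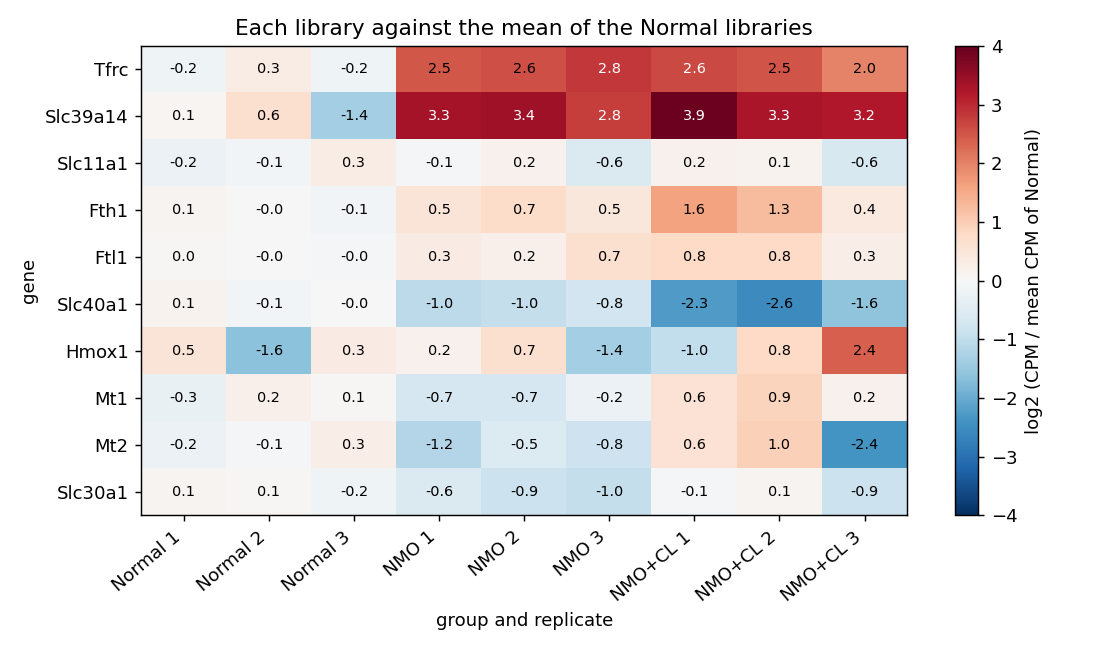
Log2 ratio of each library's CPM to the mean of the 3 Normal libraries, with 1 row per gene and 1 column per library. Red is higher and blue lower than the Normal mean. Both uptake genes Tfrc and Slc39a14 are red in all 6 injected libraries and Slc40a1 blue in all 6, and NMO+CL replicate 3 has the lowest Mt2 and the highest Hmox1 of the 9.

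Read over the set, 4 iron genes passed in NMO+CL against Normal, and the tested zinc and metallothionein genes, Slc30a1 and Mt2, passed in no comparison. For NMO against Normal, 1 of the 8 tested genes rose (Tfrc) and 0 fell, where 0.472% of all genes tested were called higher and 0.0244% lower, 4 of the 8 had an unadjusted p under 0.05 beside 9.51% of all genes, and DESeq2's Wald test called 1 higher and 1 lower, where it called 1.32% and 0.489% of all genes. For NMO+CL against NMO, 0 rose and 1 fell (Slc40a1), where 0.529% and 1.07% of all genes were called. There 2 of the 8 had an unadjusted p under 0.05 beside 12.4% of all genes, and DESeq2's Wald test also called 0 of them higher and 1 lower, where it called 1.6% and 2.26% of all genes. For NMO+CL against Normal, 3 rose (Tfrc, Fth1 and Ftl1) and 1 fell (Slc40a1), where 4.79% and 4.43% of all genes were called, and DESeq2's Wald test gave the same counts beside 6.48% and 6.36% of all genes. The last 2 comparisons each share a group with the first, so their calls are not independent.

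The 8 tested genes, without the 2 picked ones, had a median log2 fold change of -0.04 in NMO relative to Normal, 0.40 in NMO+CL relative to NMO, and 0.45 in NMO+CL relative to Normal, beside -0.01, -0.01 and -0.01 over all genes tested. Groups did not overlap for 6, 1 and 4 of the 8 genes not picked for a rise, beside 17.4%, 17.1% and 28.7% of all genes. The 6 in NMO against Normal were the higher Tfrc, Fth1 and Ftl1 and the lower Slc40a1, Slc30a1 and Mt2.

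**Figure D4:**
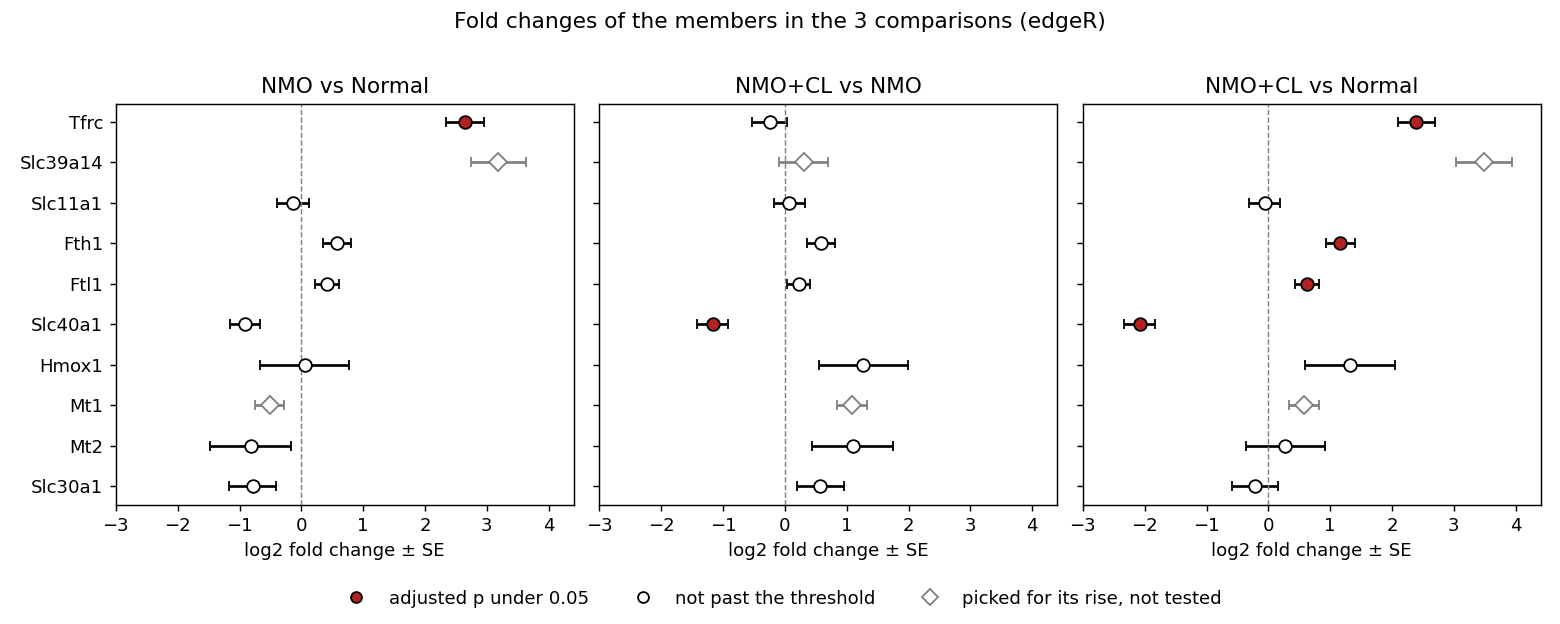
Log2 fold change ± SE of the 10 genes in the 3 comparisons (edgeR, all 9 libraries in 1 fit). Filled circles passed the adjusted p threshold of 0.05, open circles did not, and diamonds are Slc39a14 and Mt1, which were not tested. Tfrc is filled in both comparisons with Normal, Slc40a1 in both comparisons of NMO+CL, and Fth1 and Ftl1 in NMO+CL against Normal.

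The wider iron, zinc, heme and Nrf2 lists held 72 genes beside the 10, of which 70 were in the tables and 55 were tested. In NMO against Normal 1 rose and 0 fell, where 0.472% and 0.0244% of all genes did. In NMO+CL against NMO 0 rose and 1 fell, where 0.529% and 1.07% of all genes did. In NMO+CL against Normal 4 rose and 2 fell, where 4.79% and 4.43% of all genes did. At an unadjusted p under 0.05 there were 4, 7 and 18 of the 55, beside 9.51%, 12.4% and 22.3% of all genes. Their median log2 fold changes were 0.10, 0.04 and 0.18, beside the -0.01 over all genes. DESeq2's Wald test called 1 of the list genes higher and 0 lower, then 1 and 1, and in NMO+CL against Normal 6 and 2, where its shares of all genes were 1.32% and 0.489%, then 1.6% and 2.26%, and last 6.48% and 6.36%.

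Of the 4 tested genes of iron export and its regulators, Cp, a ferroxidase that loads exported iron onto transferrin, rose in NMO over Normal. It had 6.90 to 11.9 CPM in Normal, 23.9 to 46.3 in NMO and 13.8 to 28.7 in NMO+CL, with no overlap between NMO and Normal. The log2 fold change was 1.95 (SE 0.41, adjusted p = 0.0425), and the call was lost without any 1 Normal library (adjusted p = 0.161 for replicate 1, 0.119 for replicate 2 and 0.204 for replicate 3), without NMO replicate 1 (0.200) or NMO replicate 3 (0.0904) and with limma-voom (0.115). Aco1 and Ireb2, which encode the iron regulatory proteins, did not pass in any comparison, and neither did Ncoa4, the ferritin autophagy receptor, nor the other 2 of the 3 tested storage genes. Of the 7 tested uptake genes beside the members, 0 were called in any comparison by edgeR or DESeq2's Wald test. At an unadjusted p under 0.05 there were 1, 1 and 4 of the 7, beside 9.51%, 12.4% and 22.3% of all genes.

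Among the 5 tested mitochondrial iron genes, Iscu, the scaffold on which iron-sulfur clusters are built, fell in NMO+CL (11.5 to 24.7 CPM, against 31.9 to 62.2 in NMO and 39.5 to 55.0 in Normal). It fell by 1.53 relative to Normal (SE 0.36, adjusted p = 0.0112) and by 1.49 relative to NMO (SE 0.36, adjusted p = 0.0449). The first call was lost without Normal replicate 3 (0.0621) or NMO+CL replicate 2 (0.0620). The second was lost without Normal replicate 1 (0.0717), 2 (0.0793) or 3 (0.0814), NMO replicate 1 (0.228) or 2 (0.0647), or NMO+CL replicate 2 (0.222) or 3 (0.124), and with DESeq2 size factors (0.0522) or limma-voom (0.0589). Of the 8 tested heme genes Fech, which inserts iron into heme, was the only one called, and fell by 1.88 in NMO+CL relative to Normal (SE 0.49, adjusted p = 0.0212), from 24.5 to 29.96 CPM down to 2.77 to 10.1 CPM. Its call was lost without Normal replicate 1 (0.0793), 2 (0.0524) or 3 (0.0679) or NMO+CL replicate 1 (0.0596).

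In NMO+CL against Normal, 6 of the 12 tested zinc importers had an unadjusted p under 0.05 (5 higher and 1 lower), beside 22.3% of all genes, and the list's median log2 fold change was 0.57. Among iron uptake genes it was 4 of 7 (3 higher and 1 lower), with Slc39a8 in both lists, and among mitochondrial iron genes 3 of 5 (all 3 lower). Of the importers Slc39a1 and Slc39a10, both carriers of zinc into the cytosol, rose. Slc39a1 had 92.4 to 116 CPM in Normal, 133 to 143 in NMO and 217 to 229 in NMO+CL, 3 levels with no overlap (log2 1.04, SE 0.19, adjusted p = 0.00150 in NMO+CL against Normal). Slc39a10 had 44.1 to 66.8, 63.6 to 86.6 and 104 to 131 CPM (log2 1.15, SE 0.23, adjusted p = 0.00414). Both calls held under all 16 alternatives. By edgeR neither gene passed in NMO against Normal (adjusted p = 0.570 for Slc39a1 and 0.584 for Slc39a10). Neither passed in NMO+CL against NMO (0.0826 and 0.171), where DESeq2's Wald test called Slc39a1 (0.00461). In NMO+CL against Normal another importer, Slc39a6, was called by DESeq2's Wald test and not by edgeR (log2 0.91, SE 0.28, adjusted p = 0.0531). Of the 5 tested zinc exporters 0 passed in any comparison by edgeR or DESeq2's Wald test, with 0 at an unadjusted p under 0.05. Mt3 and Mt4, the other metallothionein genes, did not pass the filter on low counts, and Mtf1 gave 0.14 (SE 0.29), -0.17 (SE 0.29) and -0.03 (SE 0.29) in the 3 comparisons.

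In the Nrf2 and Bach1 list, 2 of 11 tested genes rose in NMO+CL over Normal and 0 fell, by edgeR and by DESeq2's Wald test, where edgeR called 4.79% of all genes higher. The same 2 were the only ones at an unadjusted p under 0.05, which 22.3% of all genes reached. Txnrd1, a thioredoxin reductase, rose by 1.28 on the log2 scale (SE 0.30, adjusted p = 0.0116) and Prdx1, a peroxiredoxin, by 0.88 (SE 0.23, adjusted p = 0.0236). The Txnrd1 call was lost without Normal replicate 3 (0.0713), and that of Prdx1 without Normal replicate 2 (0.122) or 3 (0.0665) or NMO+CL replicate 1 (0.0825) or 2 (0.106). Nfe2l2 itself, which encodes Nrf2, gave 0.04 (SE 0.24, adjusted p = 0.962).

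**Figure D5:**
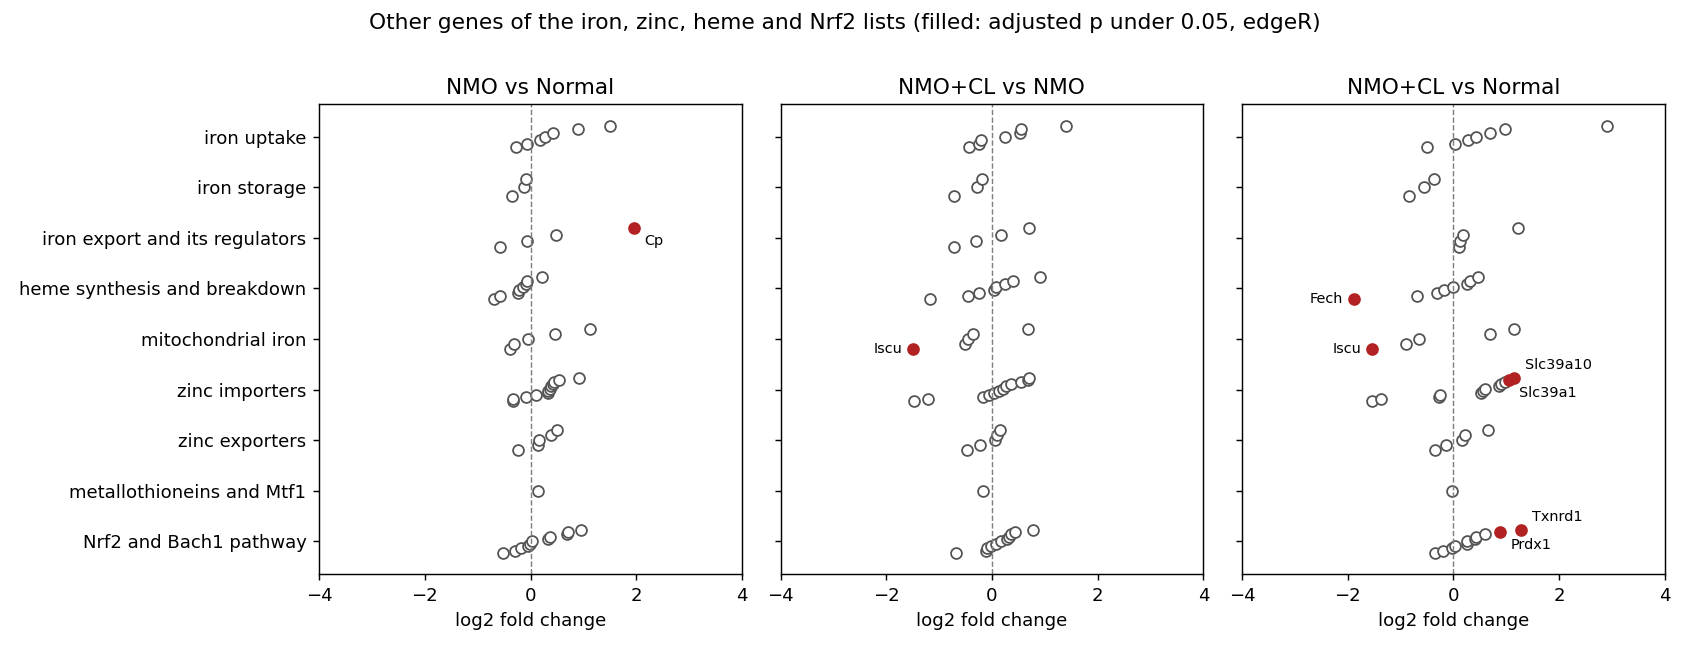
Log2 fold change of the 55 tested list genes beside the 10 members, by list (rows) and comparison (panels). Genes with an adjusted p under 0.05 are filled and named: Cp in NMO against Normal, Iscu in NMO+CL against NMO, and Fech, Iscu, Slc39a1, Slc39a10, Txnrd1 and Prdx1 in NMO+CL against Normal.

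The genes most like the 2 picked ones were found by the Pearson correlation of log2 CPM over the 9 libraries, among the 8840 genes averaging 50 or more counts. For Slc39a14 they were Cct6a (r = 0.980), Slc7a1 (0.966), Mrps18b (0.965), Timeless (0.961) and Rrp9 (0.959). Slc7a1, a carrier of cationic amino acids, had group means of 19.9 CPM (Normal), 68.0 CPM (NMO) and 111 CPM (NMO+CL). For Mt1 they were Sult1a1 (r = 0.956), Nars (0.940), Ktn1 (0.926), Zdhhc7 (0.918) and Rbm42 (0.912). Sult1a1, a sulfotransferase, had 45.1, 28.5 and 70.2 CPM in the same order, with the lowest mean in NMO, as Mt1 had. The r between Slc39a14 and Mt1 themselves was 0.0667, which left no room for a gene this close to both.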

How the data were processed

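Sorted microglia were profiled by QuantSeq, which reads the 3′ end of polyadenylated RNA (75-base reads). The authors deposited raw counts per gene for each library. Per the submitters' processing notes, Bowtie2, bedtools and mm10 were used, and by the study's methods unique and multiple alignments both counted. The annotation and the use of strand are not given in the sources used here. The members and gene lists were chosen with earlier results of these data known.

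Counts of 35 repeated symbols (79 of 23282 entries) were summed, none a member. All 9 libraries entered 1 edgeR 4.0.16 quasi-likelihood fit (R 4.3.3, limma 3.58.1, filterByExpr minimum count 10 and minimum total 15, TMM, 1 coefficient per group, two-sided, Benjamini-Hochberg over 12292 genes). The study's methods describe the 3 replicates of a group as independent and biological, each a pool. Labels do not say that they came from separate sorts, so p-values measure the spread between these pools. Replicates differed by more than sampling noise, so none was counted as a repeat of another. The named genes were the members, list genes called in at least 1 comparison and the 5 genes most correlated with Slc39a14 and with Mt1. The genes Aco1, Ireb2, Ncoa4, Slc39a6, Slc39a8, Mt3, Mt4, Mtf1, Nfe2l2 and P2ry12 were added after their values were seen. Replicate numbers were checked for pairing: deviations of same-numbered libraries correlated at -0.0128 to 0.0380, so no pairing was assumed. The fit was tested on simulated data. The 16 alternatives were DESeq2 1.42.0 size factors, summed counts alone, no filter, DESeq2's Wald test, limma-voom, a replicate block, removal of Rn45s (16.0% to 31.0% of counts) and leaving out each of 9 libraries. With 3 libraries a group, the common biological coefficient of variation was 0.519. Positions come from GENCODE M21 (22205 of 23238 symbols matched), look-alike ends from BLAST 2.17.0.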

Additional observations from a re-analysis of the deposited data

How the results depend on the processing

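Of 16 alternatives for each result, none ended the calls of Tfrc against Normal in NMO or NMO+CL, of Slc40a1 and Fth1 in NMO+CL against Normal, or of Slc39a1 and Slc39a10 in NMO+CL against Normal. For the 8 tested members, 1 was called in NMO against Normal, but 2 with all genes that had a count and 2 with DESeq2's Wald test, the added gene being Slc40a1 (adjusted p = 0.0331 and 0.0317). In NMO+CL against NMO the number was 1, and 0 to 2 when a library was left out. Among list genes, the 1 call in NMO against Normal became 0 with limma-voom and 0 with the replicate block, and the 1 call in NMO+CL against NMO became 0 with DESeq2 size factors, 2 with DESeq2's Wald test and 0 with limma-voom. Leaving out 1 library gave 0 to 1 list genes in NMO against Normal, 0 to 2 in NMO+CL against NMO and 2 (without Normal replicate 3) to 9 (without NMO+CL replicate 3) in NMO+CL against Normal. With the replicate block, 1, 1 and 3 members were called, Ftl1 being lost (adjusted p = 0.0677). The replicate block ended no other call of a member and the call of Cp in NMO against Normal (adjusted p = 0.0691). Libraries sharing a number did not deviate together.

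Sign changes occurred among values that were not called. Iscu in NMO against Normal was 0.051 with summed counts alone, and -0.36 to 0.14 over the fits that left out 1 library. In the same fits Slc11a1 was -0.312 to 0.0261 (NMO against Normal), -0.0919 to 0.288 (NMO+CL against NMO) and -0.187 to 0.157 (NMO+CL against Normal), Hmox1 in NMO against Normal was -0.39 to 0.423, Slc30a1 in NMO+CL against Normal was -0.42 to 0.0252, and Mt2 in NMO+CL against Normal was -0.24 to 0.783, with -0.23 by limma-voom. The cause was not tested. Over all genes, the calls in NMO against Normal were 58 higher and 3 lower, but 185 and 38 with all genes that had a count and 162 and 60 with DESeq2's Wald test. In NMO+CL against NMO they were 65 and 131, but 193 and 272 with DESeq2's Wald test. Leaving out 1 library gave 19 to 71 higher and 1 to 4 lower in NMO against Normal (fewest higher without Normal replicate 3), 18 to 75 and 33 to 169 in NMO+CL against NMO (fewest without NMO+CL replicate 2) and 335 to 641 and 303 to 622 in NMO+CL against Normal, where the full set gave 589 and 545. Low counts limit Slc39a14 in Normal (9 to 40) and Mt2 (14 to 141).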
